A study of Mus musculus with 3 samples.

Results

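Of the 13500 open chromatin windows of the mouse molar, 9852 had a GC content of at least 60%, and 585 of these held few CpG dinucleotides, at most 5 per 100 steps between neighbouring bases. These 585 GC-rich, CpG-depleted windows are described here. They are set against the other 9267 GC-rich windows, those with more than 5 CpG per 100 steps, called CpG-richer windows below. Only base composition chose them. Genes, positions and motif sites were not used, though base composition can bear on which motif sites occur.

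The windows come from ATAC-seq, an assay that cuts and tags accessible DNA with the Tn5 transposase. The 3 libraries were 1 from a mutant, Gli1-CreER;Arid1a fl/fl, and 2 from controls, Arid1a fl/fl without the Cre. All mice were C57BL/6, were given tamoxifen by intraperitoneal injection at postnatal day 3.5 and were sampled at postnatal day 7.5. Cells came from the apical part of first molars, digested with collagenase, and the labels give 5000 cells per group for library preparation. Arid1a encodes a subunit of the SWI/SNF chromatin remodelling complex, and the tamoxifen-inducible Cre is driven by Gli1, a target gene of hedgehog signalling. Cells of the digest that neither expressed Gli1 under tamoxifen nor descend from such cells therefore keep Arid1a. The labels do not state how many animals gave a library. Each window is 201 bp long, is pooled over libraries and carries no read count, so the mutant and the controls were not compared and the depth behind a window is unknown. The choice of the regions is not stated in the sources used here. The 95% intervals of shares are exact binomial ones (Clopper-Pearson) for counting error alone, and windows are not biological replicates.

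CpG is rare in most of a mammalian genome, because its cytosine is usually methylated and methylated cytosine tends to mutate to thymine. CpG islands, which are mostly unmethylated and mark the promoters of widely expressed genes, escape this loss and are rich in both GC and CpG. Sequence that is rich in GC but poor in CpG is therefore no typical island. Plagl1, also called Zac1, is a zinc finger transcription factor that can arrest the cell cycle and binds a GC-rich motif. A motif site is a match of sequence and not a measurement of binding.

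For 55 CpG-depleted windows all bases lie in RefSeq promoter sequences of GRCm38.p6, the assembly of mm10, and 6 windows are printed to show what such sequence looks like. The first pair belongs to collagen genes of the gene lists counted further on, Col1a2 for an alpha chain of type I collagen and Col11a1 for a chain of the fibrillar collagen XI. The next pair, at Nav2 for a neuron navigator protein and Acy1 for an aminoacylase, holds 2 sites each, with the highest scores among the 2-site windows whose bases are known. E130018N17Rik, a gene with no role given here, has the window with the most sites among the 55. The last window, at the Rab GTPase-activating protein gene Tbc1d22a, is a CpG-richer one with the same GC content as that of Col11a1. It was chosen for its high CpG count among such windows with a site and known bases. Each runs 5′ to 3′ on the strand of the gene, and capitals mark the deposited Plagl1 motif sites, which can lie on either strand.

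Col1a2 (chr6:4505441-4505641, plus strand): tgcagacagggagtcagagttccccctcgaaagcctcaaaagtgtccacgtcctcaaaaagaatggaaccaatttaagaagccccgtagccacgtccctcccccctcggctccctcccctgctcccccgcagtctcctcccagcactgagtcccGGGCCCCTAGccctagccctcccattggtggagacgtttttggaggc

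Col11a1 (chr3:114030367-114030567, plus strand): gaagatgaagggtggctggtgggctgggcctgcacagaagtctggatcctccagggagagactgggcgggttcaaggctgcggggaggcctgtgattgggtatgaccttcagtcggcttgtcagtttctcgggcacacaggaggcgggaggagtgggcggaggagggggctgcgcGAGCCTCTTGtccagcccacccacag

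Nav2 (chr7:48958851-48959051, plus strand): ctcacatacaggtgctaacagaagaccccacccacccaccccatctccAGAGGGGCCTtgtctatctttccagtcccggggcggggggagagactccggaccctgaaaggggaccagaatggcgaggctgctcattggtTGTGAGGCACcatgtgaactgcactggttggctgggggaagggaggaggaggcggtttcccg

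Acy1 (chr9:106438282-106438482, minus strand): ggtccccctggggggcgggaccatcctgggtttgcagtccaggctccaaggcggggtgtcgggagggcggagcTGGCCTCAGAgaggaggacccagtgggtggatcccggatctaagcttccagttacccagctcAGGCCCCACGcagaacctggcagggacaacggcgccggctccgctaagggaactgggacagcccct

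E130018N17Rik (chr2:168154531-168154731, minus strand): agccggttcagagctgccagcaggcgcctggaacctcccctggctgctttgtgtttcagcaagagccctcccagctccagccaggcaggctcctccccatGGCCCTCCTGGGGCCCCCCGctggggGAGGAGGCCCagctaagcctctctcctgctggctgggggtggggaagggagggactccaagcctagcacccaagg

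Tbc1d22a (chr15:86214295-86214495, plus strand): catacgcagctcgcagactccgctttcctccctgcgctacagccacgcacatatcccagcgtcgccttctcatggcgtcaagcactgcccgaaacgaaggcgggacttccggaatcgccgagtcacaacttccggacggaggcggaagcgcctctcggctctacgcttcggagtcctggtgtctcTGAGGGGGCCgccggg

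The Col1a2 window had a GC content of 60.7% and 8 CpG, and the Col11a1 window had 64.7% and 8 CpG. Nav2 had 6 CpG at 61.7% GC, Acy1 had 10 CpG at 68.2% GC, and E130018N17Rik had 3 CpG at 68.7% GC. The Tbc1d22a window held 23 CpG at the same 64.7% GC as that of Col11a1. TpG and CpA, the steps that CpG becomes when its cytosine mutates to thymine, numbered 30 in the Col11a1 window, against 19 in that of Tbc1d22a. This pair is not typical. In promoter windows of 60 to 65% GC, CpG-richer ones had a mean of 16.4 CpG. Mean TpG plus CpA steps there were 26.3 in CpG-depleted and 23.1 in CpG-richer windows. At E130018N17Rik, 1 site overlaps the sites on either side of it, so the 4 sites form 2 stretches.

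The chosen windows sat at the lower edge of the GC-rich range. Their GC content ran from 60.2% to 73.6% with a median of 62.2%, against a median of 70.1% and a highest value of 88.1% in CpG-richer windows. Their CpG count had a median of 8, with a range of 0 to 10, against a median of 22 and a range of 11 to 46 in CpG-richer windows. The observed over expected CpG ratio, taken with G and C in equal numbers, had a median of 0.420 and a highest value of 0.552. It had a median of 0.882 in CpG-richer windows. No CpG-depleted window thus reached the ratio of 0.6 that is often asked of a CpG island. These values restate the rule. At its edges, 159 of the 585 windows lay just inside, with 10 CpG, and 199 CpG-richer windows lay just outside, with 11. On the GC side 66 windows lay at 60.2%, the lowest value inside, and 61 windows with 5 or fewer CpG per 100 steps lay just outside, at 59.7%.

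**Figure D1:**
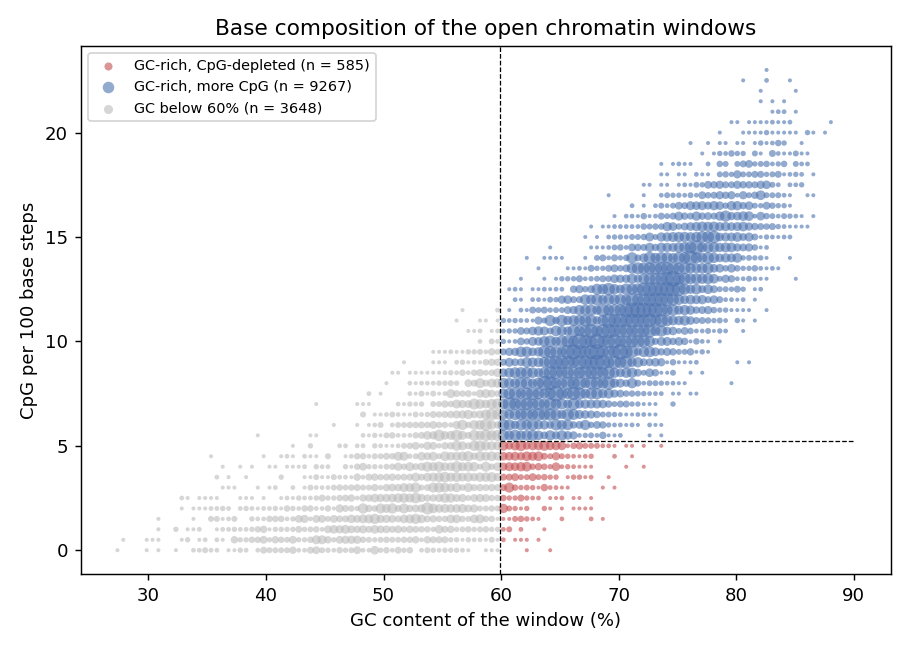
GC content of each window (x axis, percent) against its CpG per 100 base steps (y axis). Dots grow with the number of windows at the same values, and dashed lines show the rule: the 585 CpG-depleted windows lie in the lower right, below the 9267 CpG-richer windows and right of those with less GC.

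In the 55 promoter windows with known bases, features that the rule did not use could be read. Because the CpG-depleted windows have less GC, steps were compared within 60 to 65% GC, where 43 CpG-depleted and 294 CpG-richer windows had nearly the same mean GC content (62.5% and 62.6%). TpG plus CpA steps numbered 26.3 ± 5.01 in CpG-depleted windows, against 23.1 ± 4.22 in CpG-richer windows (mean ± SD over windows). ApG plus CpT steps numbered 34.8 ± 4.54 in CpG-depleted windows, against 28.6 ± 4.68 in CpG-richer windows. GpG plus CpC steps numbered 47.9 ± 5.43 in CpG-depleted windows, against 40.8 ± 6.12 in CpG-richer windows. Without the GC limits they were level, at 49.8 ± 6.51 in all 55 CpG-depleted windows and 49.6 ± 9.93 in all 1096 CpG-richer windows. GpC, the same bases as CpG in the other order, numbered 17.6 ± 3.55 in CpG-depleted windows, against 19.9 ± 3.45 in CpG-richer ones. GpA plus TpC steps were nearly level, at 25.1 ± 5.76 and 25.4 ± 4.60. With GC content held, a window with fewer CpG must have more of some other steps, so these counts are not independent of the rule and were not tested.

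**Figure D2:**
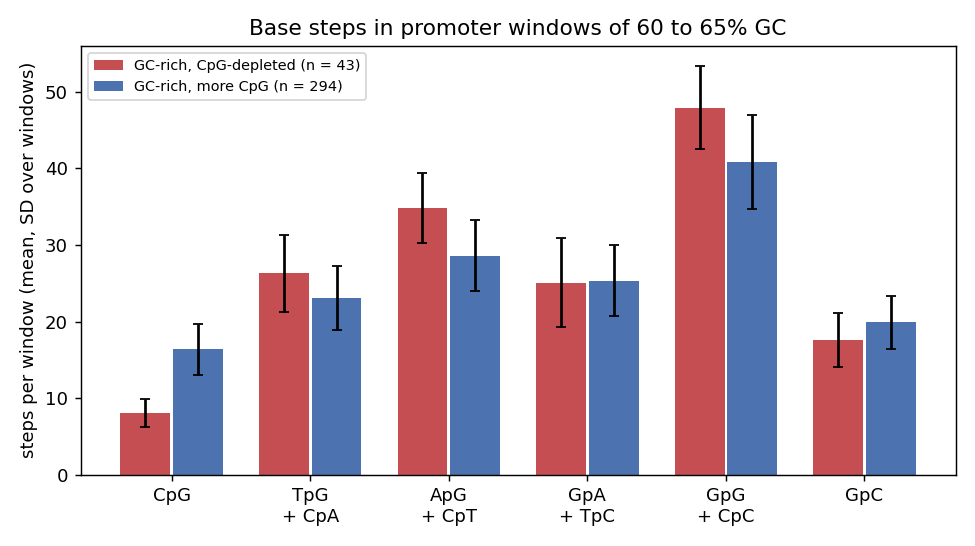
Number of each kind of base step per window (y axis, mean with SD over windows) in promoter windows of 60 to 65% GC, for 43 CpG-depleted and 294 CpG-richer windows. Beside the lower CpG that the rule sets, GpG plus CpC, ApG plus CpT and TpG plus CpA had higher means in CpG-depleted windows.

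Short promoter elements were searched on both strands of the same promoter windows, within 60 to 65% GC. The GA box GGGAGG, which can overlap a Plagl1 site, was in 28 of 43 CpG-depleted windows (65.1%), against 107 of 294 CpG-richer windows (36.4%). The GT box GGGTGG was in 18 of 43 CpG-depleted windows (41.9%), against 82 of 294 CpG-richer windows (27.9%). The GC box GGGCGG, the classical element of Sp1, holds a CpG itself and was about level, in 25 of 43 (58.1%) and 178 of 294 (60.5%). Without the GC limits it was in 33 of 55 CpG-depleted windows, against 864 of 1096 CpG-richer windows (78.8%). The CCAAT box, the element of NF-Y, was in 16 of 43 (37.2%) and 130 of 294 (44.2%). Of the other elements that hold a CpG, the Ets element TTCCGG was in 7 of 43 CpG-depleted windows (16.3%), against 101 of 294 CpG-richer windows (34.4%). The cyclic AMP element TGACGT was in 1 of 43, against 34 of 294, and the E box CACGTG in 2 of 43, against 28 of 294. The AP-1 element TGANTCA was in 2 of 43, against 2 of 294, and the TATA box TATAAA in 0 of 43, which allows a share of up to 8.22%, against 6 of 294. These shares were not tested.

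The first question was where CpG-depleted windows lie relative to genes. They lay less often at gene ends and far more often away from genes than CpG-richer windows. Within 1 kb of an end of a protein-coding gene were 277 of 585 CpG-depleted windows (47.4%, 95% interval 43.2 to 51.5), against 7320 of 9267 CpG-richer windows (79.0%, 78.1 to 79.8). Within genes, with both ends more than 1 kb away, were 156 CpG-depleted windows (26.7%, 23.1 to 30.4), against 1466 CpG-richer windows (15.8%, 15.1 to 16.6). Outside genes were 152 CpG-depleted windows (25.98%, 22.5 to 29.7), against 481 CpG-richer windows (5.19%, 4.75 to 5.66). CpG-depleted windows therefore made up 24.0% of the GC-rich windows outside genes and 3.65% of those at gene ends.

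The odds ratio of CpG-depleted over CpG-richer windows was 0.239 at gene ends (95% interval 0.201 to 0.285, Fisher's exact test, adjusted p = 7.83e-58). It was 1.93 inside genes (1.59 to 2.35, adjusted p = 2.63e-10) and 6.41 outside genes (5.18 to 7.91, adjusted p = 7.28e-55), by two-sided Fisher's exact tests adjusted over 11 shares. The 3 classes add up to all windows, so these tests are not independent. With both sets held to 60 to 65% GC, the odds ratio outside genes was 3.31, with 125 of 480 windows against 174 of 1812, and a logistic model with GC content gave 3.68 (2.93 to 4.61). At gene ends the odds ratio ran from 0.158, when the CpG limit was 4 per 100 steps, to 0.316, when an observed over expected ratio of 0.6 was the limit. Inside genes it ran from 1.63, when 500 bp counted as near, to 2.97, when 3 kb did.

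**Figure D3:**
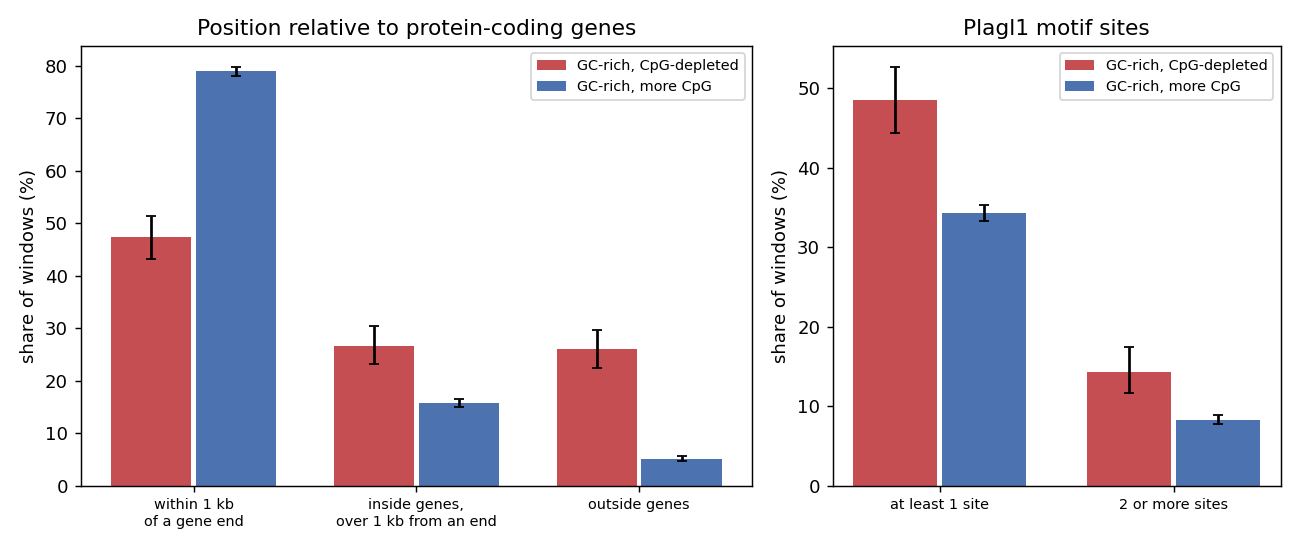
Share of windows (y axis, percent) by position relative to protein-coding genes (left) and with Plagl1 motif sites (right), for 585 CpG-depleted and 9267 CpG-richer windows. Error bars are exact 95% binomial intervals. CpG-depleted windows are fewer at gene ends, and more numerous inside genes, outside genes and with sites.

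At the ends of genes, windows of both kinds lay almost wholly at starts. Of 534 CpG-depleted windows with a known strand of the nearby gene or no gene end nearby, 218 (40.8%) lay within 1 kb of a start, against 5887 of 7926 CpG-richer windows (74.3%). The odds ratio was 0.239 (0.199 to 0.287, adjusted p = 7.49e-55, Fisher's exact test). Only the finish of a gene lay within 1 kb of 8 CpG-depleted windows (1.50%), against 92 CpG-richer windows (1.16%). That odds ratio was 1.30 with an interval of 0.540 to 2.68 (Fisher's exact test, adjusted p = 0.412), so a difference at gene finishes was not detectable with these numbers. The 8 windows, named after their values were seen, were nearest to Slc11a1, Csrp1, Tmem234, Atp6v1fnb, Ccdc97, Sertad1, 1700067K01Rik and Tex22. A further 51 CpG-depleted and 1341 CpG-richer windows lay near genes whose strand was not known here and were left out of these counts.

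Around starts, the midpoints of CpG-depleted windows ran from -925 bp, upstream of the start, to 986 bp downstream, with a median of 95 bp downstream. In CpG-richer windows the median was 113 bp downstream. Upstream of the start were 63 of 218 CpG-depleted midpoints (28.9%, 23.0 to 35.4), against 1229 of 5887 CpG-richer ones (20.9%, 19.8 to 21.9). This split was not tested. Away from gene ends, CpG-depleted windows had larger median distances to the nearest outer gene end than CpG-richer windows. Inside genes the median was 12041 bp, against 3986 bp for CpG-richer windows. Outside genes it was 16902 bp, against 12718 bp. The lower and upper quartiles outside genes were close, at 6095 and 36391 bp, against 5276 and 35616 bp. These distances were not tested. Only outer ends count here, so a window inside a gene can still lie at an annotated start. For example, the windows inside Fam222b and Dysf, 20853 and 10901 bp from an end, lay 83 and 124 bp from a RefSeq start. Of the 152 CpG-depleted windows outside protein-coding genes, 29 (19.1%) lay within 1 kb of the end of a noncoding gene and 21 (13.8%) inside one. Of the 481 CpG-richer windows outside protein-coding genes, 184 (38.3%) lay near a noncoding gene end and 49 (10.2%) inside a noncoding gene.

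The position of a window moved with its CpG count on both sides of the limit. Within 60 to 65% GC, 14 of 61 windows with 0 to 4 CpG (23.0%, 13.2 to 35.5) lay at a gene end. The share was 28.8% at 5 to 6 CpG and 60.5% at 9 to 10, and 68 of 136 windows with 7 to 8 CpG lay there. Beyond the limit it was 69.6% at 11 to 12 CpG and 87.3% (81.5 to 91.8) at 21 to 25 CpG. The limit of 5 CpG per 100 steps thus cuts a gradual series and marks no break in it.

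**Figure D4:**
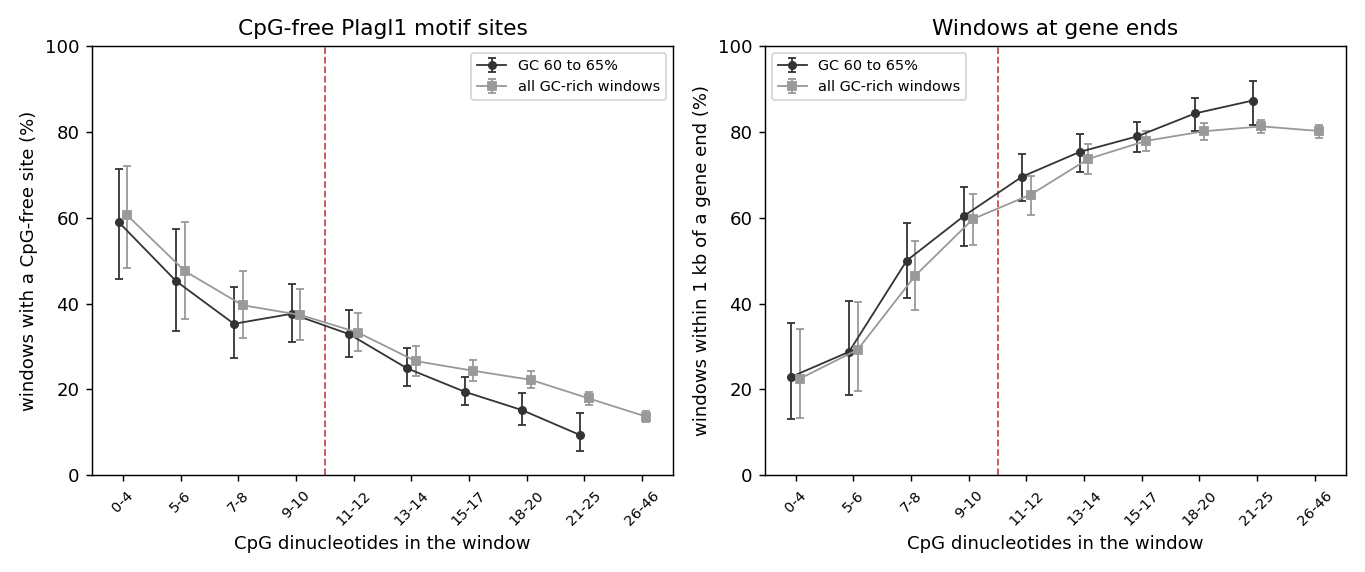
Share of windows with a Plagl1 motif site that holds no CpG (left, y axis in percent) and share within 1 kb of a gene end (right), by the number of CpG dinucleotides in the window (x axis). Black points are windows of 60 to 65% GC and grey points all GC-rich windows, with exact 95% binomial intervals; the red dashed line is the limit of 10 CpG. Windows with a CpG-free site become fewer, and windows at gene ends more numerous, from left to right.

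A small part of the CpG-depleted windows lay on the X chromosome, 25 of 585 (4.27%), against 218 of 9267 CpG-richer windows (2.35%). The odds ratio was 1.85 (1.16 to 2.84, adjusted p = 0.0128, Fisher's exact test). It was 1.18 (0.755 to 1.84) in a logistic model with GC content and 1.23 (0.706 to 2.06) within 60 to 65% GC, both tried after the data were seen, and neither passed. The CpG-depleted windows were otherwise spread over all autosomes, with 58 on chromosome 7 and 53 on chromosome 11 at the high end and 12 on chromosome 12 at the low end. They seldom lay close together, since 4 pairs lay less than 5000 bp apart and the closest pair 909 bp.

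The second question was whether CpG-depleted windows carry the Plagl1 motif. They held it more often: 284 of 585 CpG-depleted windows had at least 1 site (48.5%, 44.4 to 52.7), against 3176 of 9267 CpG-richer windows (34.3%, 33.3 to 35.2). The odds ratio was 1.81 (1.52 to 2.15, adjusted p = 1.74e-11, Fisher's exact test), and 2.13 (1.78 to 2.54) with GC content in a logistic model. Sites are built of steps such as GpG and ApG, whose numbers are not independent of the rule. Base composition therefore bears on all shares of windows with sites. With 2 or more sites were 84 CpG-depleted windows (14.4%, 11.6 to 17.5), against 767 CpG-richer windows (8.28%, 7.72 to 8.86). Their odds ratio was 1.86 (1.44 to 2.38, adjusted p = 3.95e-06, Fisher's exact test). Sites of a window can overlap, on 1 strand or both, and each was counted. With sites that share a base counted as 1 stretch, an alternative chosen after the data were seen, 74 CpG-depleted windows (12.6%) had 2 or more stretches, against 613 CpG-richer windows (6.61%), an odds ratio of 2.04 (1.56 to 2.65). With 4 or more sites were 8 CpG-depleted windows (1.37%), against 22 CpG-richer windows (0.237%).

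The share with a site was higher in CpG-depleted windows at each gene position, though outside genes the interval reached below 1. At gene ends, 126 of 277 CpG-depleted windows had a site (45.5%), against 34.0% of CpG-richer windows, an odds ratio of 1.62 (1.26 to 2.08). Inside genes, 87 of 156 had one (55.8%), against 34.7%, an odds ratio of 2.37 (1.68 to 3.36). Outside genes, 71 of 152 had one (46.7%), against 37.4%, an odds ratio of 1.46 with an interval of 0.996 to 2.15. The odds ratios were not shown to differ between gene positions over the 9852 windows (likelihood ratio test in a logistic model with GC content, asymptotic and not exact, p = 0.0668).

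Sites of CpG-depleted windows seldom held a CpG themselves, as the rule itself makes likely. Of 399 sites in CpG-depleted windows, 336 (84.2%) held none. Of 4111 sites in CpG-richer windows, 2119 (51.5%) held none. A site with no CpG was present in 247 of 585 CpG-depleted windows (42.2%, 38.2 to 46.3), against 1822 of 9267 CpG-richer windows (19.7%, 18.9 to 20.5), an odds ratio of 2.99 (2.50 to 3.56). Sites that hold a CpG went the other way, in 61 CpG-depleted windows (10.4%), against 1738 CpG-richer windows (18.8%). For 2 or more sites without a CpG the odds ratio was 4.69 (3.49 to 6.23), and for 2 or more sites that score at least 6.5 it was 4.13 (1.63 to 9.24), with 8 windows against 31.

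Over the CpG count the share with a CpG-free site was again a gradual series. Within 60 to 65% GC it was 59.0% (45.7 to 71.4) at 0 to 4 CpG, 45.2% at 5 to 6, 35.3% at 7 to 8 and 37.6% at 9 to 10. It was 32.9% at 11 to 12 CpG and 9.39% (5.57 to 14.6) at 21 to 25.

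The most frequent site sequences also differed, and the rule itself bears on those that hold a CpG. Sites are written 5′ to 3′ on the motif strand, with positions 4 to 8 in capitals.

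Most frequent in CpG-depleted windows: cctGGGGCcc

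Next in CpG-depleted windows: cttGGGGCca

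Most frequent in CpG-richer windows: cccGGGGCcc

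Next in CpG-richer windows: cgcGGGGCcc

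The first was found 8 times in CpG-depleted windows (2.01% of sites) and 30 times in CpG-richer windows (0.730%). The second, one of 3 sequences tied at 6 sites and singled out after its counts were seen, was found 6 times in CpG-depleted windows and 0 times among the 4111 sites of CpG-richer windows. The others of the tie, aggGAGGCcc and tggGAGGCtc, were found 21 and 17 times in CpG-richer windows. Its 6 windows had Pdk4, Trip6, Axl, Elf4, Clpb and Vdac1 as nearest genes, on 5 chromosomes. The most frequent sequence of CpG-richer windows was found 2 times in CpG-depleted windows and 112 times in CpG-richer windows, and the next 0 times and 107 times. Both of those hold a CpG. In all, 256 distinct sequences occurred in CpG-depleted windows and 574 in CpG-richer windows, and 243 in both, which is 94.9% of the first list and 42.3% of the second.

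For the sites themselves, the score, the base at position 5 and the strand did not pass in the main tests. A score of 6.5 or more, the log-odds measure that HOMER gives a match, was reached by 75 of 399 sites in CpG-depleted windows (18.8%), against 613 of 4111 sites in CpG-richer windows (14.9%). The odds ratio was 1.32 (0.999 to 1.73, adjusted p = 0.0568, Fisher's exact test). Over the best site of each window it was 1.38 (1.02 to 1.85) and passed at an adjusted p of 0.0437, and over sites without a CpG it was 0.902. Median scores were 5.97 in CpG-depleted windows and 5.93 in CpG-richer windows. Position 5, where position 1 is the 5′ base of the site as printed, was A in 177 of 399 sites (44.4%), against 1673 of 4111 sites (40.7%). Its odds ratio was 1.16 (0.939 to 1.44, Fisher's exact test, adjusted p = 0.203), and 0.782 within 60 to 65% GC. Position 4 was G in all 399 sites of CpG-depleted windows, and position 3 was C in 3.76% of them, against 15.8% in CpG-richer windows. A C there makes a CpG with that G, so the rule itself bears on this difference. At position 10, A was in 24.8% of sites of CpG-depleted windows, against 13.2% in CpG-richer windows. C at position 1 was in 37.1%, against 48.2%, and G at position 8 in 13.3%, against 8.73%. These positions were picked after their values were seen and were not tested. Of the sites in CpG-depleted windows, 217 were on the plus and 182 on the minus strand (exact binomial test, two-sided, p = 0.0886). The plus share did not pass against CpG-richer windows either (54.4% and 51.3%, Fisher's exact test, adjusted p = 0.273).

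The third question was which genes these windows mark. Of 10205 protein-coding genes with a window of any kind within 1 kb of an end, 320 (3.14%) had a CpG-depleted one there, and for 291 of the 320 no other window lay at an end. A CpG-richer window also lay at an end of 18 of the 320. How many of all 10205 genes had more than 1 window at an end was not counted. These counts therefore do not set the 320 genes apart from other genes. Counting the gene body as well, 482 of 11712 genes (4.12%) had a CpG-depleted window.

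Among the genes that the series is about, Gli1 stood inside the rule and the others did not. The Gli1 window, at chromosome 10, 127339470 to 127339670, lay inside this hedgehog effector gene, 2009 bp from an end. With a GC content of 62.2% and exactly 10 CpG it was a member at the very limit, and it held 2 sites, tggGGGGCac with a score of 5.93 and tgaGGGGGca with 5.52. The Plagl1 window had 22 CpG at 69.2% GC and no site. Of the 3 Arid1a windows, 1 had 32 CpG at 81.1% GC, and the others lay below 60% GC.

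Lists of pathway and cell type genes were counted against the 3.14% of all genes. Over all lists, a CpG-depleted window lay at an end of 8 of the 208 genes that had any there, or 3.85%. Odontoblast and osteogenic genes had 3 of 14, namely Col1a2, Dlx5, a homeobox gene of jaw and bone, and Sparc, which encodes the bone matrix protein osteonectin. The Col1a2 window lay 77 bp upstream of the start with 1 site of score 6.15. The Sparc window lay 137 bp downstream of the start with 3 CpG and 1 site of score 5.79, and a second CpG-depleted window with 4 CpG lay outside the gene at 8326 bp. The Dlx5 window had 9 CpG and no site. With counts this small the share is a description of these genes only.

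The dental mesenchyme list had 1 of 9, the homeobox gene Barx1 of molar mesenchyme, 309 bp upstream of the start and without a site. The collagen and matrix list had 1 of 11, Col11a1, 12 bp upstream of the start with 1 site of score 6.33. Of the genes that drive the cell cycle, 2 of 30 had a CpG-depleted window at an end, the D-type cyclin gene Ccnd2 and E2f3, which encodes an activator of S phase genes, both without a site. Another D-type cyclin gene, Ccnd3, had 2 such windows inside the gene, of which 1 held 4 sites with a best score of 6.53.

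Other lists held none at gene ends. The count was 0 of 17 for the hedgehog pathway, 0 of 19 for cell cycle inhibitors, 0 of 25 for BMP and TGF-beta signalling, 0 of 19 for the Wnt pathway, 0 of 22 for SWI/SNF subunits, 0 of 13 for the Notch pathway and 0 of 8 for imprinted genes. Housekeeping genes had 0 of 13. Counts of 0 in lists this short are a description only. Inside genes, away from the ends, a CpG-depleted window was found at Cdkn1a, the p53-induced Cdk inhibitor, at the signal transducer Smad3, the SWI/SNF subunit gene Bcl7c and the imprinted gene Nnat. Of the other cell types that a molar digest could hold, endothelial markers had 1 of 3, the receptor gene Tie1, whose window had 4 CpG and 1 site of score 5.70. Dental epithelium had 0 of 2, immune cells 0 of 3, glial and neuronal cells 0 of 3 and pericytes and smooth muscle 0 of 1. The macrophage receptor gene Csf1r had a CpG-depleted window inside the gene.

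No gene held more than 2 CpG-depleted windows, and 12 held 2. All 12 are tied, and among them, in alphabetical order, were Arhgap23, Ccnd3, Creb3l1, Gse1, Hif3a, Maml2, Myadm, Plin3 and Ralgps1. Creb3l1 encodes a transcription factor of collagen secretion in bone, Hif3a a hypoxia-inducible factor, Maml2 a Notch coactivator and Plin3 a lipid droplet protein. At Hif3a, 1 window lay 61 bp upstream of the start with 8 CpG and no site, and the other lay 4048 bp inside with 4 CpG and 3 sites, best score 6.98. Myadm and Plin3 had no windows in or near the gene beside these.

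Of the 8 windows with 4 sites, 2 held them as 4 separate stretches, and in the other 6 some sites shared bases. At Pdk4, which encodes a kinase that shuts down pyruvate dehydrogenase, a window 212 bp upstream of the start held 6 CpG and 4 sites in 3 stretches, with a best score of 7.05. Inside Igf1r, the receptor gene for insulin-like growth factor 1, a window 104283 bp from the nearest end held 10 CpG and 4 sites in 2 stretches, best score 6.73. The other windows with 4 sites were that of Ccnd3, with 2 stretches, and 5 windows outside genes, nearest to Vps8, Adnp, Gm39147, Faap20 and Hexim2, with 7, 3, 1, 6 and 3 CpG. The window nearest to Adnp is the one printed above at the start of E130018N17Rik. With 3 sites, Tlcd2 and Hif3a complete the 10.

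The highest single score, 7.61, was at Hacd4, a gene of very long chain fatty acid synthesis, in a window 158 bp downstream of the start with 5 CpG. Next came windows inside Ccdc12 (7.55), in a window with 1 CpG, and inside Afap1 (7.54), which encodes an actin filament-associated protein. Windows at Tsc22d4, Cfap300 and Zdhhc9 shared a best score of 7.36, where Cfap300 encodes a protein of cilia and Zdhhc9 a palmitoyltransferase. The rest of the 10 were nearest to Wnt7b (7.28), a Wnt ligand gene 72067 bp away, Zxdb (7.27), the focal adhesion gene Tns3 (7.27) and Fcor (7.20). At the other end of the CpG range, the windows inside Rps6kc1 and the kinase gene Grk5 had 0 CpG, and 6 windows had 1. The first 3 of these in genome order were nearest to the splicing factor gene Srrm1, Tsc22d4 and Gm39147, and that of Ccdc12 was another.

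A few CpG-depleted windows lay within 1 kb of a miRNA hairpin. CpG-richer windows were not searched for hairpins, so no share can be set beside this. The mature sequences in the RefSeq table are given for 2 of these hairpins, chosen after they were seen. Bases 2 to 8, the seed, are in capitals.

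mmu-miR-199b-3p: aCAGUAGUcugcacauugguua

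mmu-miR-484: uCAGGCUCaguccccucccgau

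The window by Mir199b, at chromosome 2, 32318078 to 32318278, lay 336 bp from the hairpin inside Dnm1, with 8 CpG and 2 sites. The window by Mir484 lay 239 bp from the hairpin, at the start of Marf1, with 10 CpG and 0 sites. The other hairpins were Gm23363, by the window of Mir199b, and Mir7671 and Mir8120.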

How the data were processed

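Per the submitters' processing notes, the build was mm10 and the tools included Bowtie2 2.3.5 and MACS2 2.1.1, along with Picard, FastQC 0.11.8 and bedtools. The annotatePeaks program of HOMER, per the file headers, took 100 bp to each side of the centre of each region in a union peak list and searched 1 motif, that of Zac1 (Plagl1). The GC and CpG values are deposited as fractions of bases and of steps, and were turned into percent and into CpG per 100 steps. The deposited site score is HOMER's log-odds score, whose log base the file does not state. All 5753 sites matched the site list by position and strand. In the 1543 windows whose bases lie in the RefSeq promoter table (GRCm38.p6, 250 bases before to 50 after a start), GC and CpG equalled the deposited fractions within 1e-05 in all 1543, which checked build and coordinates. Coordinates count from 1.

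Gene positions were those of RefSeq on GRCm38.p6, with 21887 protein-coding symbols. Strand came from the promoter table, which holds 17492 protein-coding genes. A window lay at a gene end when its midpoint was within 1 kb of an outer end of the gene. Starts inside a gene were not counted. Shares were compared between 585 and 9267 windows with two-sided Fisher's exact tests (conditional odds ratios) and Benjamini-Hochberg adjustment over 11 shares, at 0.05. The tests treat windows as independent, though neighbouring windows share a locus, so p-values can be too small. They compare sequences and not samples. The test code was checked on simulated counts and the position code on a few windows placed by hand. That check accepted either call, start or finish, for a finish on the minus strand.

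Named are Plagl1, Arid1a and Gli1, per list up to 6 genes with a CpG-depleted window at an end, the 10 genes with most such windows (ties in alphabetical order), the 10 windows each with the highest score and the most sites, the 5 with the fewest CpG (ties in genome order), and genes of printed promoters. Of the genes this rule picks, 1 is not reported here. Other list genes with such a window inside were named after their values were seen. The windows, gene lists and rules were chosen with earlier results of these data known, and the promoter elements were chosen after the windows were seen. The analysis used Python 3.11.15, numpy 2.4.6, pandas 2.3.3, scipy 1.17.1, statsmodels 0.14.6 and matplotlib 3.10.9.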

Additional observations from a re-analysis of the deposited data

How the results depend on the processing

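Shares at gene ends, inside and outside genes each kept direction and call under 13 alternatives, with odds ratios of 0.158 to 0.316, 1.63 to 2.97 and 3.31 to 8.10. So did the shares with a site (1.31 to 2.99 over 17) and with 2 or more sites (1.50 to 4.69 over 16). The upper values, 2.99 and 4.69, count only sites without a CpG, a filter on which the rule itself bears. The alternatives covered GC and CpG limits, the CpG measure, GC matching, the distance rule, gene types, 1 window per gene, autosomes and score limits. For sites they also covered windows at or away from gene ends, gene position as a covariate, CpG inside the site and overlap of sites. Of these alternatives, a pair of fits for sites and the merging of overlapping sites were chosen after the data were seen. Windows outside genes alone were not among them, with an odds ratio for a site of 1.46 (0.996 to 2.15). Among values that did not pass, the odds ratio of a high score turned to 0.902 without CpG-holding sites and passed at 1.38 over best sites. That of A at position 5 turned to 0.945 without CpG-holding sites and 0.782 at 60 to 65% GC. The X chromosome share no longer passed with GC in the model (1.18) or matched (1.23), both chosen after the data were seen, and GC content differs between the sets. Counting gene bodies, 15 of 250 listed genes had a CpG-depleted window, against 4.12% of all 11712 genes, in place of 8 of 208. No paired analysis was possible because windows carry no value per library, and for the same reason no replicate could be left out. Depth is unknown.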
